A study of Mus musculus with 29 samples.

Results

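The Peg3, Snrpn and Kcnq1ot1 imprinted regions were examined in reduced representation bisulfite sequencing (RRBS) libraries of mouse cells. RRBS cuts DNA at CpG-containing sites, converts unmethylated cytosines with bisulfite and reads the fragments, so that each read over a CpG counts as methylated or unmethylated. The regions were taken by position on chromosome 7 of the mm9 build, as chr7:6677000-6688000 for Peg3, chr7:67145000-67153000 for Snrpn and chr7:150478000-150485000 for Kcnq1ot1. They hold 26 bins of 1 kb, of which 10 held any read and 4 held 10 or more reads in all 29 libraries, among 95549 such autosomal bins in the series. These 4 bins, 2 in Peg3, 1 in Snrpn and 1 in Kcnq1ot1, are the members described here, and no gene annotation of mm9 was used to place them within exons or introns.

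The embryonic stem cells (ESCs) came from 3 male lines (named J-34, J-35, J-37) and entered their media at passage 4. The lines were grown for 16 passages in 2i/L and then returned to S/L for 10 passages (returned p30, n = 2) or 3 passages (returned p23, n = 3). Others stayed for 16 passages in 2i/L (2i/L p20, n = 3), a2i/L (a2i/L p20, n = 2), PKCi/L (PKCi/L p20, n = 2) or S/L (S/L p20, n = 3), or for 6 passages in 2i/L (2i/L p10, n = 3), a2i/L (a2i/L p10, n = 1), PKCi/L (PKCi/L p10, n = 1) or S/L (S/L p10, n = 3). S/L is medium with serum and the cytokine LIF, 2i combines PD, an inhibitor of the kinases Mek1/2, with CHIR, an inhibitor of the kinase Gsk3, and the labels do not spell out the agents of a2i/L and PKCi/L. J-34 cells also received PD alone or CHIR alone for 6 passages (n = 1 each). The Mek1/2 double knockout (n = 1) was a clonal line of induced pluripotent cells, labelled male, made from Mek1fl/fl;Mek2-/- fibroblasts with viral M2rtTA and doxycycline-inducible Oct4, Klf4, Sox2 and c-Myc, then treated with Cre plasmid and kept in S/L on irradiated fibroblast feeders. Neonatal keratinocytes are called 2i/L keratinocytes (n = 2, labelled male) and wild-type keratinocytes (n = 1, labelled female), and the labels do not say how the first were linked to 2i/L. The title of a returned p30 library names J-35 and its other labels J-34, so its line is uncertain, and it is called J-35 here.

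At an imprinted gene the maternal and the paternal copy carry different DNA methylation, set in the germ line and kept through the early embryo while most other methylation is lost. At all 3 regions the mark is set in the oocyte, the methylated maternal copy is silent, and the paternal copy is expressed. Peg3 encodes a zinc finger protein, Snrpn encodes a protein of the splicing machinery and lies at the imprinting centre of the Prader-Willi and Angelman cluster, and Kcnq1ot1 is a long non-coding RNA that silences neighbouring genes on the copy that expresses it. In mouse, the zinc finger protein ZFP57 keeps such methylation by binding the methylated motif TGCCGC. A region with an intact mark on 1 copy is read near the middle of the scale, and the reads here carry no information on which copy they came from. A lower level in fewer cells and a lower level in every cell cannot be told apart in these bulk libraries.

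The RefSeq promoter windows of the 3 genes, of 300 bases on GRCm38.p6, are shown for the CpG content of these imprinted starts, with each CG in capitals. They lie on the minus strand at chr7:6730370-6730669 (Peg3), chr7:60005150-60005449 (Snrpn, the window with the most CGs of 4 in the table) and chr7:143296498-143296797 (Kcnq1ot1), coordinates that cannot be compared with the mm9 positions of the libraries.
Peg3: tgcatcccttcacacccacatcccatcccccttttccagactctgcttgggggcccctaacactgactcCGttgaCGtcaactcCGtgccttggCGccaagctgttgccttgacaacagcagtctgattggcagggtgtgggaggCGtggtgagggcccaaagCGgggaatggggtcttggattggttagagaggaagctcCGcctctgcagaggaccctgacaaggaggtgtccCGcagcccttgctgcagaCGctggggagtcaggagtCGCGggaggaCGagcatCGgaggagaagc
Snrpn: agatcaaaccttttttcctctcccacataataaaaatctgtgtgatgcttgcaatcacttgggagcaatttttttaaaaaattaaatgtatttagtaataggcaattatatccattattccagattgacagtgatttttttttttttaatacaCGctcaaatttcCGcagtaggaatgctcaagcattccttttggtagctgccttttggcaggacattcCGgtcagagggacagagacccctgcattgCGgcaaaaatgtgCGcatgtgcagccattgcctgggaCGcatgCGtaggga
Kcnq1ot1: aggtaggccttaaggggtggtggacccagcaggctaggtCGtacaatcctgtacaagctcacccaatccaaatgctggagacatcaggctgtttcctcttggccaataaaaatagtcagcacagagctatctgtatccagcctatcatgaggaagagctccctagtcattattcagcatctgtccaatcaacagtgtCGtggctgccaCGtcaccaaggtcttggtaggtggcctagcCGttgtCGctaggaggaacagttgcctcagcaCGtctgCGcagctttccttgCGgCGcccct
The windows hold 13 CGs for Peg3, 7 for Snrpn and 9 for Kcnq1ot1, and the median over 32817 RefSeq windows was 7. CCGG, the site cut by MspI, occurs once in the Snrpn window and in neither of the others, whereas 52.8% of all windows hold it. TGCCGC, searched on both strands, also occurs once in the Snrpn window and in neither of the others, and 11.6% of all windows hold it. These matches describe the letters of the windows and not binding.

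The libraries held 8359802 to 22433006 CpG reads in all, but the depth over the members was low. The Peg3 bin chr7:6682001-6683000 held 12 to 51 reads per library over 3 to 5 CpGs, and its neighbour chr7:6683001-6684000 held 16 to 123 reads over 2 to 10 CpGs. The Snrpn bin chr7:67149001-67150000 held 35 to 104 reads over 7 to 12 CpGs, and the Kcnq1ot1 bin chr7:150481001-150482000 held 67 to 278 reads over 9 to 22 CpGs. Of 78 CpGs listed in the regions, 22 were read in every library, and they fell into 9 clusters whose CpGs lay 50 or fewer bases apart. CpGs of a cluster can lie on the same fragments, although their read counts differ in places. Where fragments are shared, intervals over CpG reads are too narrow, and intervals with 1 CpG per cluster are given beside them. Wherever 1 CpG per cluster is used, clusters were formed from all listed CpGs within each bin. The Peg3 cluster from 6682973 to 6683038 crosses the border of the bins, so 1 CpG on each side was counted. Peg3 intervals of this kind may therefore still be too narrow. CpGs read in every library held 87.0% to 89.4% of the Kcnq1ot1 reads in returned p23, 2i/L p20 and S/L p20, and 50.3% to 51.5% in returned p30, a2i/L p20 and PKCi/L p20, so comparisons between those sets also set partly different CpGs against each other. The level of a region is the mean over its bins of the percentage of methylated reads, with each bin weighted equally.

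Check of the label. In wild-type keratinocytes the 3 regions lay in the middle of the scale, at 51.7% for Peg3 (16 of 32 reads, 95% Wilson interval of the read share 33.6 to 66.4), 41.8% for Snrpn (29.7 to 55.0) and 55.4% for Kcnq1ot1 (45.7 to 64.8). The S/L p10 stem cells averaged 48.7% ± 14.7 for Peg3, 51.8% ± 13.6 for Snrpn and 43.1% ± 2.90 for Kcnq1ot1 (SD, n = 3). All 4 member bins lay between 25% and 75% in wild-type keratinocytes, the first Peg3 bin with 7 of 12 reads methylated. The share of all bins in that range is not given, so the range alone does not set the members apart. Over all autosomal bins the mean in that library was 54.6% and the median 70.4%. Reads were not assigned to copies.

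**Figure D1:**
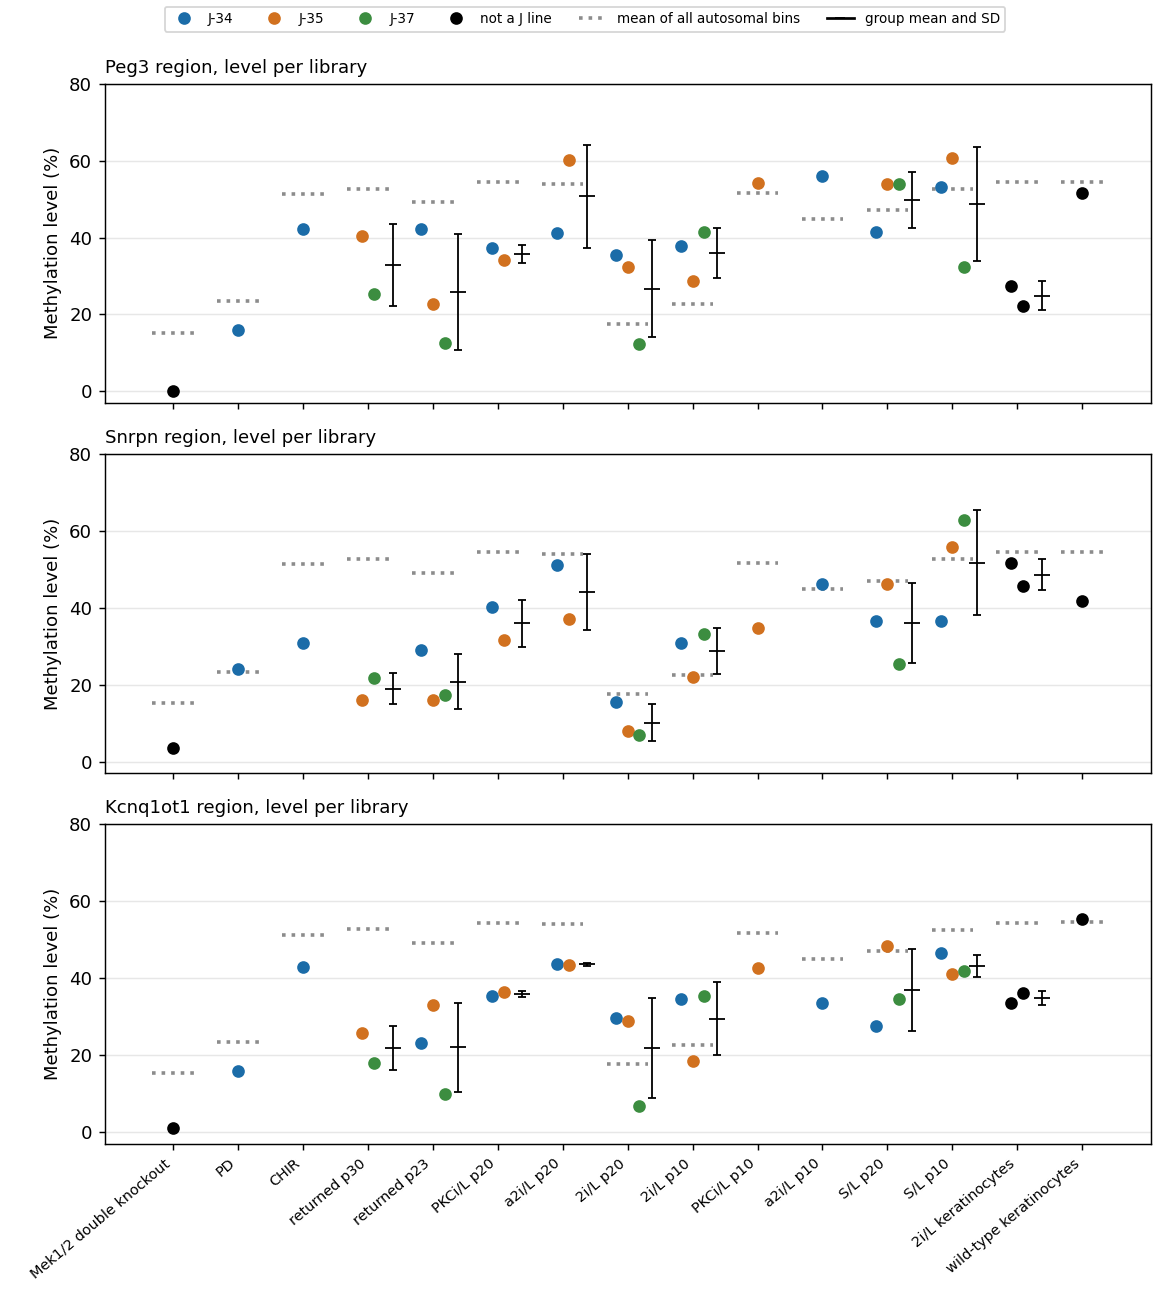
Methylation level (%) of the Peg3, Snrpn and Kcnq1ot1 regions in each of the 29 libraries, by group; points are libraries coloured by ESC line, crosses with bars are group means ± SD where n is 2 or 3, and dotted lines are the group mean over all autosomal bins. The returned p30 and returned p23 libraries all sit below their dotted lines of 52.7% and 49.1%, and the Mek1/2 double knockout sits at or near 0 in each panel.

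Loss in 2i/L at p20. After 16 passages in 2i/L all 3 regions had lower mean levels than in S/L, and 3 of their 4 bins were called lower. Peg3 read 35.5% in J-34, 32.4% in J-35 and 12.2% in J-37 in 2i/L p20, against 41.4%, 54.0% and 53.9% in the same lines in S/L p20. The groups did not overlap, and the difference of means was -23.1 percentage points. Snrpn read 15.6%, 7.95% and 6.94% in J-34, J-35 and J-37 in 2i/L p20, against 36.7%, 46.2% and 25.5% in S/L p20. These groups did not overlap either, with a difference of -25.9 points. The share of all bins without overlap is not given here, so the lack of overlap does not set Peg3 or Snrpn apart. Kcnq1ot1 read 29.7%, 28.8% and 6.77% in J-34, J-35 and J-37 in 2i/L p20, against 27.6%, 48.4% and 34.7% in S/L p20. The groups overlapped, J-34 being level in both media, and the difference was -15.2 points, or between -19.8 and -7.68 when 1 library was left out, the smallest without J-37 in 2i/L p20. J-37 in 2i/L was the lowest library at each region, and its mean over all autosomal bins was the lowest of its group too, at 11.9% beside 17.1% in J-35 and 23.8% in J-34.

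In limma across 112778 autosomal bins, with a call at an adjusted p under 0.05 and at least 20 points, the Snrpn bin was lower by a log2 odds difference of -2.24 ± 0.51 (SE, adjusted p = 0.000249). The Peg3 bins were called too, with -1.31 ± 0.55 (adjusted p = 0.0324) and -1.75 ± 0.73 (adjusted p = 0.0328), while the Kcnq1ot1 bin was not (adjusted p = 0.0555). In the same comparison 64.2% of all bins were called, so 3 of 4 is near the background, and each region differed by less than the mean of all autosomal bins, which differed by -29.4 points. The count was 1 without the J-37 2i/L p20 library, only Snrpn being called there. The exact two-sided permutation test over libraries gave p = 0.1 for Peg3 and for Snrpn, the smallest that 3 against 3 libraries allow, and p = 0.3 for Kcnq1ot1; over the 39 region tests made, the smallest adjusted p was 0.39.

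All 9 clusters of shared CpGs had a lower mean in 2i/L p20 than in S/L p20. The differences lay between -33.6 and -6.69 points at Kcnq1ot1, -31.7 and -29.0 points at Peg3 and -27.9 and -9.96 points at Snrpn. The share of clusters elsewhere is not given, so this count does not set the regions apart. At Kcnq1ot1 the 4 CpGs from position 150481332 to 150481374 averaged 13.7% in 2i/L p20 libraries and 38.4% in S/L p20, and the 4 from 150481504 to 150481522 averaged 32.7% in 2i/L p20 libraries and 39.4% in S/L p20. In the downstream cluster J-34 read 47.7% in 2i/L p20, against 22.0% in S/L p20, J-35 read 40.6%, against 59.3%, and J-37 read 9.62%, against 36.8%. The lines thus went different ways in that cluster, and only J-35 and J-37 were lower in 2i/L. Bins outside the members held too few reads per library, and their reads were summed per group. At chr7:6681001-6682000 in the Peg3 region 0 of 29 reads were methylated in 2i/L p20 libraries and 19 of 42 in S/L p20. At chr7:6680001-6681000 the reads were 0 of 23 in 2i/L p20 libraries and 7 of 24 in S/L p20. The shares were closer at chr7:6684001-6685000, also in the Peg3 region, with 8 of 26 in 2i/L p20 libraries and 11 of 32 in S/L p20. At chr7:67150001-67151000 in the Snrpn region they were 7 of 52 in 2i/L p20 libraries and 16 of 59 in S/L p20.

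Loss after 6 passages. In 2i/L p10 the mean levels were 36.0% ± 6.6 for Peg3, 28.8% ± 5.9 for Snrpn and 29.5% ± 9.6 for Kcnq1ot1, against 48.7% ± 14.7, 51.8% ± 13.6 and 43.1% ± 2.90 in S/L p10 (SD, n = 3 each). The Snrpn bin was the 1 member called, lower in 2i/L p10 (log2 odds difference -1.38 ± 0.51, adjusted p = 0.0153, limma), in a comparison in which 67.4% of all bins were called. Snrpn read 30.9%, 22.1% and 33.3% in J-34, J-35 and J-37 in 2i/L p10, against 36.6%, 55.9% and 62.9% in S/L p10, with no overlap. The call was lost, with a count of 0, without the J-35 2i/L p10 library and without the J-37 S/L p10 library. Peg3 groups overlapped, since J-37 read 32.3% in S/L p10, while Kcnq1ot1 groups did not. The share of all bins without overlap is not given for this comparison. The mean over all autosomal bins was 22.6% in 2i/L p10 and 52.6% in S/L p10, a difference of -30.0 points, beside -12.7 points for Peg3 and -13.6 for Kcnq1ot1. Levels were also set against the library's own all-bin mean, a measure chosen after the values were seen. Kcnq1ot1 stood 6.89 points above it in 2i/L p10 and at -9.50 points from it in S/L p10, without overlap (exact permutation p = 0.1, the smallest possible). Peg3 stood at 13.4 and -3.95 points (exact permutation p = 0.2), with overlap. Snrpn stood at 6.14 and -0.87 points (exact permutation p = 0.7), also with overlap. Since the all-bin mean differed by -30.0 points, any region that fell by less rises on this measure.

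Longer culture. Between 2i/L p20 and 2i/L p10 no member bin was called, beside 0.276% of all bins; 1 member had an unadjusted p under 0.05 in limma, and the quasi-binomial model also called 0. Snrpn was lower by 18.6 points, at 10.2% ± 4.7 in 2i/L p20 and 28.8% ± 5.9 in 2i/L p10 (SD, n = 3 each). Its groups did not overlap (adjusted p = 0.102, limma), and the share of all bins without overlap is not given. Without the J-34 2i/L p20 library, 1 bin, that of Snrpn, was called. Peg3 differed by -9.28 points and Kcnq1ot1 by -7.75 points, both with overlapping groups, beside -5.00 points over all bins. Between the p20 and p10 libraries in S/L no member was called, beside 0.114% of all bins, none had an unadjusted p under 0.05 in limma, and the quasi-binomial model called 0. Peg3 differed by 1.09 points, with a sign that turned under other settings, and Kcnq1ot1 by -6.23 points. Snrpn read 36.1% ± 10.4 in S/L p20 libraries and 51.8% ± 13.6 in S/L p10 (SD, n = 3 each), with overlap. The difference was not detectable at this depth and number of libraries.

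Return to S/L for 3 passages. The returned p23 libraries had regained methylation over the genome, while the mean levels of Peg3 and Kcnq1ot1 lay within 1 point of those in 2i/L p20 and that of Snrpn lay above. Over all autosomal bins the mean was 49.1% ± 0.6 in returned p23, against 17.6% ± 5.9 in 2i/L p20 libraries and 47.0% ± 0.6 in S/L p20 (SD, n = 3 per group). Peg3 read 42.2%, 22.8% and 12.7% in J-34, J-35 and J-37 in returned p23, against 35.5%, 32.4% and 12.2% in 2i/L p20, and the means differed by -0.81 points. Kcnq1ot1 read 23.1%, 33.0% and 9.82% in returned p23, against 29.7%, 28.8% and 6.77% in 2i/L p20, and the means differed by 0.25 points. Both pairs of groups overlapped, and the sign of these small differences turned with the setting. Snrpn read 29.2%, 16.1% and 17.3% in returned p23, against 15.6%, 7.95% and 6.94% in 2i/L p20, higher in all 3 lines and without overlap, by 10.7 points (exact permutation p = 0.1, the smallest possible). Leaving out J-34 in returned p23 brought the Snrpn difference to 6.54 points. With CpGs read in every library it was 8.95 points (exact permutation p = 0.3). The share of all bins without overlap between these groups is not given here.

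No member bin was called between returned p23 and 2i/L p20, whereas 69.2% of all bins were called, 78057 of them higher and 0 lower in returned p23. The Snrpn bin had an adjusted p of 0.0402 in limma but lay under the 20 points a call needs, and it was the 1 member with an unadjusted p under 0.05; the quasi-binomial model called 0 members as well. Relative to the all-bin mean of the same library, Peg3 stood at -23.3 points in returned p23 and 9.09 in 2i/L p20, Snrpn at -28.3 and -7.45, and Kcnq1ot1 at -27.1 and 4.14. These relative levels did not overlap between the groups at any region. Each exact permutation p was 0.1, the smallest possible, so the design cannot place the difference below 0.05. The all-bin mean itself differed by 31.5 points, so any bin that hardly changed would fall on this measure. The share of all bins without such overlap is not given, and no conclusion is drawn from the separation. This relative measure was chosen after the values were seen.

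Returned p23 cells compared with cells that never left S/L gave lower means at all 3 regions, at 25.9% ± 15.0 for Peg3, 20.9% ± 7.2 for Snrpn and 22.0% ± 11.7 for Kcnq1ot1 in returned p23, against 49.8% ± 7.3, 36.1% ± 10.4 and 36.9% ± 10.6 in S/L p20 (SD, n = 3 per group). The differences were -23.9, -15.2 and -14.9 points, beside 2.11 points over all bins, but the groups overlapped and each exact permutation p was 0.2. Within lines, J-37 differed by -41.3 points at Peg3, -8.15 at Snrpn and -24.9 at Kcnq1ot1 between returned p23 and S/L p20. J-35 differed by -31.2 points at Peg3, -30.1 at Snrpn and -15.4 at Kcnq1ot1. J-34 differed by 0.77 points at Peg3, -7.50 at Snrpn and -4.49 at Kcnq1ot1. No member bin was called, beside 1.26% of all bins. The first Peg3 bin came nearest, at 37.5%, 16.3% and 9.09% in returned p23, against 47.1%, 41.4% and 61.4% in S/L p20, a difference of -29.0 points (log2 odds -1.96 ± 0.55, adjusted p = 0.0582, limma). It was called by the quasi-binomial model, with a minimum of 20 reads, and without the J-34 returned p23 library, and its adjusted p ranged between 0.00979 and 0.285 over all settings. Of the 4 members, 2 had an unadjusted p under 0.05.

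**Figure D2:**
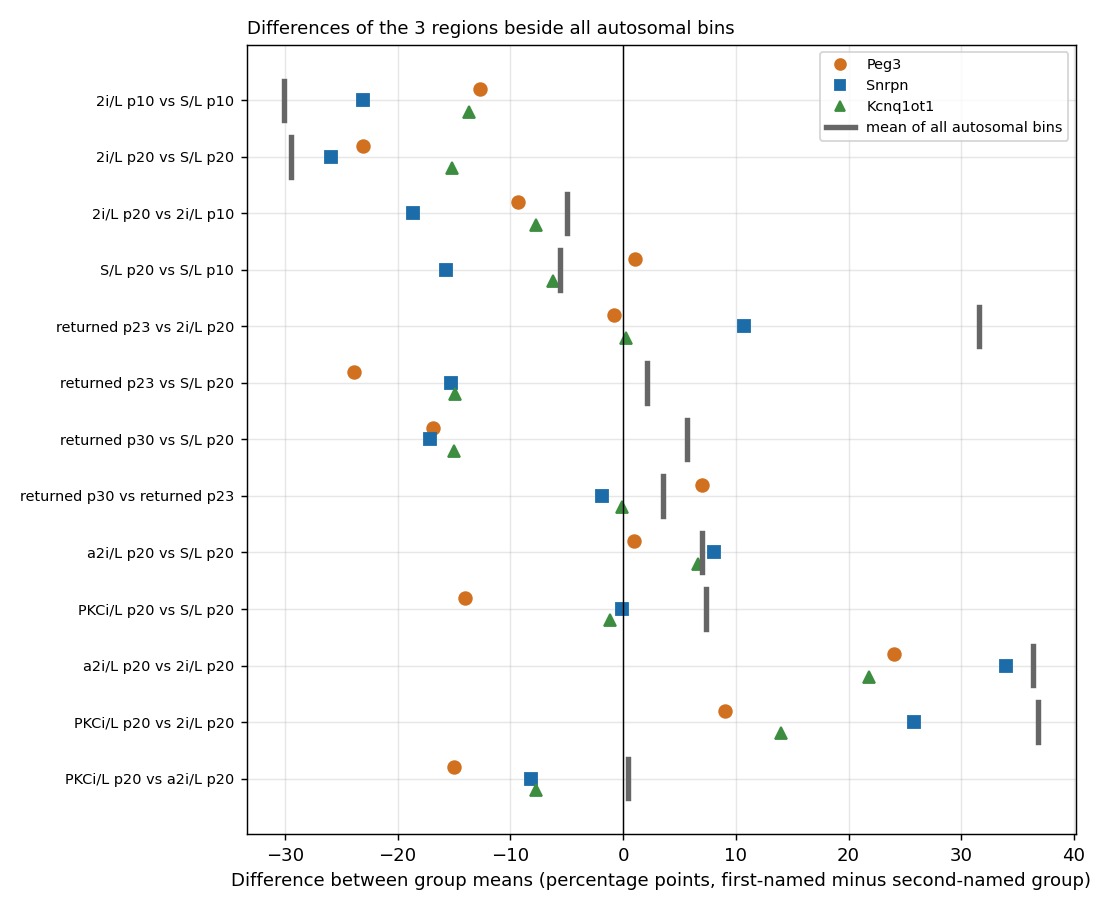
Difference between group means in percentage points, the first-named minus the second-named group, for the 13 comparisons of replicated groups; coloured symbols are the 3 regions and grey bars the mean over all autosomal bins. For returned p23 against 2i/L p20 the grey bar stands at 31.5 points, right of all 3 regions, and for returned p23 and returned p30 against S/L p20 the regions stand left of 0 and the bars right of it.

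Single CpGs of returned p23 lay between those of the other media at some sites and not at others. The shared CpGs at Peg3 positions 6682973 to 6683038 averaged 28.0% in returned p23, against 26.8% in 2i/L p20 libraries and 55.8% in S/L p20. The cluster at Kcnq1ot1 positions 150481332 to 150481374 averaged 29.4% in returned p23, against 13.7% in 2i/L p20 libraries and 38.4% in S/L p20. Its downstream neighbour at 150481504 to 150481522 averaged 13.6% in returned p23, with libraries at 15.2%, 16.7% and 8.97%, against 32.7% in 2i/L p20 libraries and 39.4% in S/L p20. The near-zero difference at Kcnq1ot1 thus includes a cluster that was higher and a cluster that was lower than in 2i/L p20, each read by at most 24 reads per CpG and library. In total 7 of 9 clusters had a higher mean in returned p23 than in 2i/L p20, and 8 of 9 a lower mean than in S/L p20. The share of clusters elsewhere is not given, so these counts do not set the regions apart. Against 2i/L p20, 69.2% of all bins were called higher. The 7 include the Peg3 CpG at 6682653, with 18 reads in returned p23 and 13 in 2i/L p20. The Snrpn cluster from 67149779 to 67149786 counted as lower but was level, at 19.0% in both groups. Bins too thin for the levels did not all go the same way. In the Peg3 region chr7:6681001-6682000 had 5 of 38 methylated reads in returned p23, against 0 of 29 in 2i/L p20 libraries and 19 of 42 in S/L p20. There chr7:6680001-6681000 had 3 of 24, against 0 of 23 and 7 of 24 in the same order. By contrast chr7:6684001-6685000 had 23 of 50, against 8 of 26 and 11 of 32, and so stood above S/L p20. In the Snrpn region chr7:67150001-67151000 had 11 of 44, against 7 of 52 and 16 of 59, and so lay near S/L p20.

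**Figure D3:**
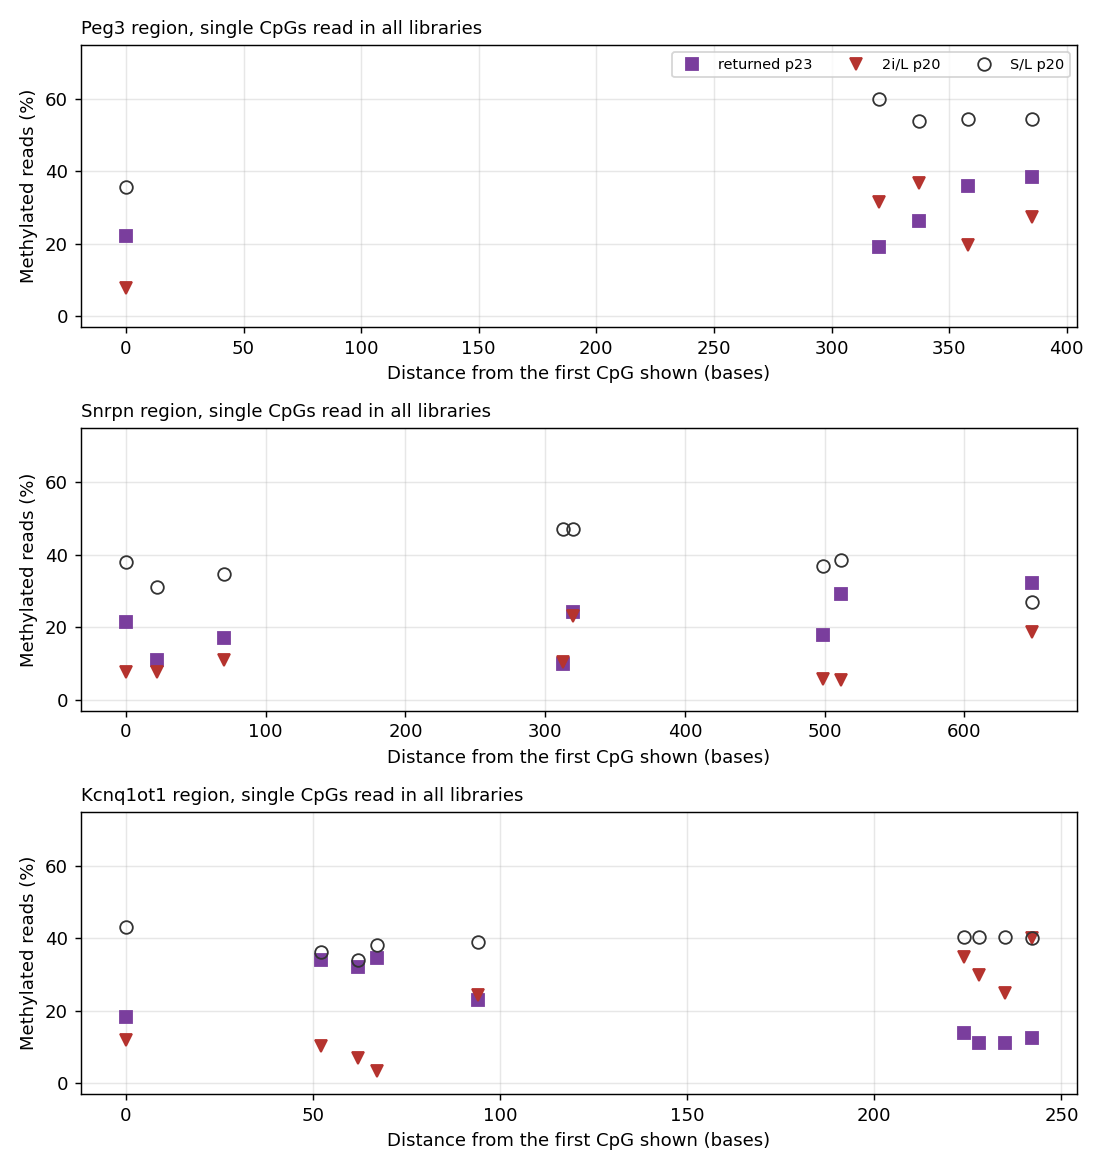
Methylated reads (%) at each of the 22 CpGs read in all libraries, reads summed over the 3 libraries of each group, by distance in bases from the first CpG shown; squares are returned p23, triangles 2i/L p20 and open circles S/L p20. At Peg3 the circles lie above the other symbols, and at Kcnq1ot1 the squares lie below the triangles in the cluster near 230 bases.

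Recovered share. The recovered share sets the gain after return against the loss in 2i/L, so that 0% is the level of 2i/L p20 and 100% that of S/L p20. It is a description without a test, since both sides share the 2i/L p20 libraries. Over 72450 autosomal bins outside the regions that had lost at least 20 points, the median was 102% in returned p23 (quartiles 90.9 and 116) and 110% in returned p30 (quartiles 98.5 and 126). The Peg3 bins had regained -31.6% and 22.1% in returned p23, and the Snrpn bin 41.2%. Of the 72450 bins, 0% had a share as low as the first Peg3 bin, 0.0787% as low as the second and 0.516% as low as Snrpn. These 3 bins had lost 22.0, 24.2 and 25.9 points, not far above the cut, and a small loss makes the share unsteady. The other bins were not matched to them for depth or loss. The border between the Peg3 bins splits a cluster of CpGs, and the Peg3 region as a whole had regained -3.53%. The Kcnq1ot1 bin, whose loss of 15.2 points was under the 20 points set for the other bins, had regained 1.63%. In returned p30 the Peg3 bins stood at 23.1% and 30.5%, Snrpn at 34.1% and Kcnq1ot1 at 0.926%.

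**Figure D4:**
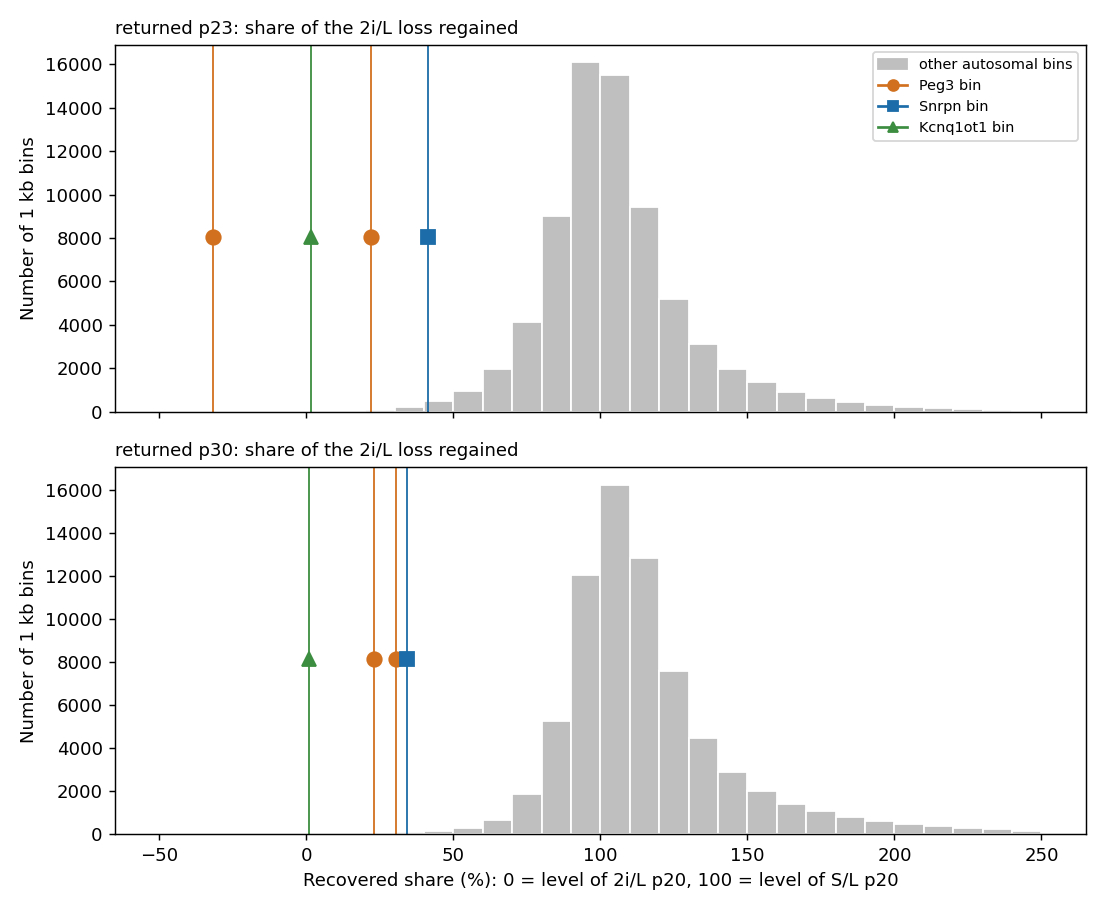
Number of autosomal 1 kb bins (grey bars, those between -50% and 250%) by recovered share in returned p23 (top) and returned p30 (bottom), for bins that lost at least 20 points in 2i/L p20; coloured lines and symbols mark the 4 member bins. All 4 members lie at or below 41.2% in both panels, left of the grey peak around 100%.

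The lines kept the same order in both groups in the mean of the 3 regions and at Peg3, but not at Snrpn or Kcnq1ot1. The mean of the 3 regions was 31.5%, 24.0% and 13.3% in J-34, J-35 and J-37 in returned p23, against 26.9%, 23.1% and 8.65% in 2i/L p20, so J-37 was lowest in both and J-34 highest in both. At Snrpn J-35 was the lowest line in returned p23 and J-37 in 2i/L p20, and at Kcnq1ot1 J-35 was the highest line in returned p23 and J-34 in 2i/L p20. Over all bins the same returned p23 libraries read 49.7%, 49.3% and 48.4%, a range of little more than 1 point. With 3 lines no test of this order was made. At Peg3 the recovered share was 0.988% in J-37 and -44.1% in J-35; J-34 had lost only 5.93 points there, and its share of 113% rests on that small loss. At Snrpn the share was 64.4% in J-34, 21.3% in J-35 and 56.0% in J-37.

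Return for 10 passages. The returned p30 libraries still had lower mean levels than S/L p20 at all 3 regions. With each bin weighted equally the groups did not overlap, but the share of all bins without overlap is not given here. Peg3 read 40.4% (J-35) and 25.4% (J-37) in returned p30, against 41.4% to 54.0% in S/L p20. Snrpn read 16.1% and 21.9% in returned p30, against 25.5% to 46.2% in S/L p20, and Kcnq1ot1 read 25.9% and 17.9%, against 27.6% to 48.4%. At Peg3 and Kcnq1ot1 the nearest libraries of the groups lay within a few points of each other, and with the reads of both Peg3 bins pooled the groups overlapped there, J-35 in returned p30 reading 42.2% and J-34 in S/L p20 reading 40.8%. The differences of means were -16.9, -17.1 and -15.0 points, beside 5.63 points over all bins, and each exact permutation p was 0.2, where 0.1 is the smallest 2 against 3 libraries allow. No member bin was called, beside 4.37% of all bins; 1 member had an unadjusted p under 0.05 in limma, and the quasi-binomial model called 0. All 9 clusters of shared CpGs had a lower mean in returned p30 than in S/L p20. The clusters come from the same libraries and are not independent, and the share of clusters elsewhere is not given. The Peg3 cluster at 6682653 held only 4 reads in returned p30 and 14 in S/L p20.

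Between returned p30 and returned p23 the region levels differed by 7.03 points at Peg3, -1.85 at Snrpn and -0.11 at Kcnq1ot1, all with overlapping groups. All 3 signs turned when 1 library was left out, the ranges being -0.47 to 15.2 at Peg3, -4.73 to 2.30 at Snrpn and -6.20 to 5.42 at Kcnq1ot1. The adjusted p in limma lay between 0.490 and 0.969 over the 4 bins. In J-37, whose labels agree, Peg3 read 25.4% in returned p30 and 12.7% in returned p23, Snrpn 21.9% and 17.3%, and Kcnq1ot1 17.9% and 9.82%. These 3 differences point the same way, but they rest on 1 library per time.

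Other inhibitor media. In a2i/L p20 the mean levels of the regions lay above those of S/L p20, with a sign that turned under other settings at Peg3, and 3 of the 4 bins were called higher than in 2i/L p20. Peg3 read 41.3% in J-34 and 60.2% in J-35 in a2i/L p20, against 35.5%, 32.4% and 12.2% in J-34, J-35 and J-37 in 2i/L p20. Snrpn read 51.1% and 37.2% in a2i/L p20, against 15.6%, 7.95% and 6.94% in 2i/L p20, and Kcnq1ot1 read 43.8% and 43.4%, against 29.7%, 28.8% and 6.77%. No region overlapped between these groups, and the share of all bins without overlap is not given here. The Snrpn bin was higher in a2i/L p20 (log2 odds 2.73 ± 0.57, adjusted p = 7.85e-05), the first Peg3 bin by 28.0 points (adjusted p = 0.0166) and the Kcnq1ot1 bin by 21.8 points (adjusted p = 0.0224, limma). The background in that comparison was 69.2% of bins called. The count was 1 without the J-37 2i/L p20 library and 1 without the J-35 a2i/L p20 library. Against S/L p20 no member was called, beside 7.8% of all bins; none had an unadjusted p under 0.05 in limma, the quasi-binomial model called 0, and the region means differed by 0.95, 8.06 and 6.64 points at Peg3, Snrpn and Kcnq1ot1.

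In PKCi/L p20 the mean levels of Snrpn and Kcnq1ot1 lay close to those of S/L p20, and that of Peg3 lay below, although no bin was called. Peg3 read 37.4% and 34.1% in J-34 and J-35 in PKCi/L p20, against 41.4%, 54.0% and 53.9% in J-34, J-35 and J-37 in S/L p20, without overlap and with a difference of -14.1 points (exact permutation p = 0.2). With the reads of both bins pooled, J-34 read 43.8% in PKCi/L p20 (49 of 112 reads), against 40.8% in S/L p20 (31 of 76 reads), so that the groups overlapped and the sign of the J-34 difference turned. The share of all bins without overlap is not given for this comparison. Over all bins PKCi/L p20 was higher by 7.39 points. Relative to the all-bin mean, Peg3 thus stood at -18.7 points in PKCi/L p20 and 2.75 in S/L p20 (exact permutation p = 0.1, the smallest possible). On this measure Snrpn stood at -18.4 and -10.9 points (exact permutation p = 0.4), with overlap. Kcnq1ot1 stood at -18.6 and -10.1 points (exact permutation p = 0.5), also with overlap. Snrpn averaged 36.0% ± 6.1 in PKCi/L p20 (SD, n = 2) and 36.1% ± 10.4 among S/L p20 libraries (SD, n = 3), and Kcnq1ot1 averaged 35.8% ± 0.8 and 36.9% ± 10.6. No member was called against S/L p20, beside 6.62% of all bins; none had an unadjusted p under 0.05 in limma, and the quasi-binomial model called 0. Against 2i/L p20 the Snrpn bin was called, higher by 25.8 points in PKCi/L p20 (log2 odds 2.25 ± 0.57, adjusted p = 0.000705, limma), where 69.4% of all bins were called. Peg3 overlapped between PKCi/L p20 and 2i/L p20 and differed by 9.03 points, or between 1.80 and 13.4 points with 1 library left out, the smallest without J-37 in 2i/L p20.

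Between PKCi/L p20 and a2i/L p20 no member was called, beside 0.0576% of all bins; 1 had an unadjusted p under 0.05 in limma, and the quasi-binomial model called 0. Peg3 differed by -15.0 points without overlap, and the share of all bins without overlap is not given. With 2 against 2 libraries the smallest exact permutation p is 0.33. Leaving out 1 a2i/L p20 library gave -24.5 points without J-34 and -5.53 without J-35, and with pooled reads the groups overlapped, J-34 reading 43.8% in PKCi/L p20 and 39.3% in a2i/L p20. At p10, with 1 library each, Peg3, Snrpn and Kcnq1ot1 read 56.0%, 46.3% and 33.6% in a2i/L p10 (J-34) and 54.1%, 34.8% and 42.7% in PKCi/L p10 (J-35), against group means of 48.7%, 51.8% and 43.1% in S/L p10.

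Single inhibitors and the Mek1/2 double knockout. These groups have 1 library each and no test. PD alone gave 16.0% at Peg3 (interval of the read share 8.10 to 26.1), 24.2% at Snrpn (16.5 to 33.9) and 15.8% at Kcnq1ot1 (11.1 to 22.0). CHIR alone gave 42.3% at Peg3 (31.2 to 57.7), 30.8% at Snrpn (19.9 to 44.3) and 42.9% at Kcnq1ot1 (33.5 to 52.7). The PD and CHIR intervals were apart at Peg3 and Kcnq1ot1 and overlapped at Snrpn. With 1 CpG per cluster and bin they were 3.46 to 25.6 for PD and 29.2 to 67.0 for CHIR at Peg3. Those were apart, but they may still be too narrow, since the cluster across the bin border counts on both sides. At Kcnq1ot1 they were 12.0 to 36.7 for PD and 25.6 to 63.2 for CHIR, overlapping. The J-34 S/L p10 library read 53.1% at Peg3, 36.6% at Snrpn and 46.5% at Kcnq1ot1, and over all bins the means were 23.4% with PD, 51.3% with CHIR and 52.6% in J-34 S/L p10.

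The double knockout had almost no methylated reads at the 3 regions. Peg3 had 0 of 49 reads, which allows a share of up to 6.12% by the floor of 3 counts (Wilson upper bound 7.27). With 1 CpG per cluster and bin the floor was 12.5% (0 of 24 reads, Wilson upper bound 13.8). These bounds may still be too low, since the cluster across the bin border counts on both sides. Snrpn had 3.66% of 82 reads methylated (Wilson interval 1.25 to 10.2) and Kcnq1ot1 0.98% of 102 reads (0.173 to 5.35). With 1 CpG per cluster Snrpn had 0 of 36 reads (floor 8.33%, Wilson upper bound 9.64) and Kcnq1ot1 0 of 25 (floor 12.0%, Wilson upper bound 13.3). The knockout had the lowest level of all 15 groups at each region, and its mean over all bins, 15.3%, was also the lowest. The line is a single clone made by reprogramming and was compared with no parental or unedited clone, so the deletion, the clone and the reprogramming cannot be told apart.

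Keratinocytes. The 2i/L keratinocytes read 27.5% and 22.3% at Peg3, against 51.7% in wild-type keratinocytes, and 33.5% and 36.1% at Kcnq1ot1, against 55.4% in wild-type keratinocytes. At Snrpn they read 51.6% and 45.8%, against 41.8% in wild-type keratinocytes. Peg3 and Kcnq1ot1 were thus lower in both libraries and Snrpn higher in both. The read-share intervals for Kcnq1ot1 were 27.3 to 40.3 and 26.6 to 46.9 in 2i/L keratinocytes, against 45.7 to 64.8 in wild-type keratinocytes, and the second overlapped it. With 1 CpG per cluster the Kcnq1ot1 intervals were 21.2 to 50.1 and 24.6 to 66.3 in 2i/L keratinocytes, against 41.7 to 84.8 in wild-type keratinocytes, all overlapping. The Peg3 read-share intervals were 20.2 to 41.0 and 17.6 to 39.03 in 2i/L keratinocytes, against 33.6 to 66.4 in wild-type keratinocytes, again overlapping. Those of Snrpn were 39.6 to 63.4 and 33.7 to 58.3, against 29.7 to 55.0, and overlapped over most of their width. Over all bins the libraries were alike, at 54.5% and 54.3% in 2i/L keratinocytes and 54.6% in wild-type keratinocytes. With 1 wild-type library, labelled female beside male 2i/L libraries, no test was made.

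Order of the levels and likeness. From low to high Peg3 ran from the Mek1/2 double knockout, PD, 2i/L keratinocytes, returned p23, 2i/L p20, returned p30, PKCi/L p20, 2i/L p10, CHIR, S/L p10, S/L p20, a2i/L p20, wild-type keratinocytes and PKCi/L p10 to a2i/L p10. Snrpn ran from the knockout, 2i/L p20, returned p30, returned p23, PD, 2i/L p10, CHIR, PKCi/L p10, PKCi/L p20, S/L p20, wild-type keratinocytes, a2i/L p20, a2i/L p10 and 2i/L keratinocytes to S/L p10. Kcnq1ot1 ran from the knockout, PD, 2i/L p20, returned p30, returned p23, 2i/L p10, a2i/L p10, 2i/L keratinocytes, PKCi/L p20, S/L p20, PKCi/L p10, CHIR, S/L p10 and a2i/L p20 to wild-type keratinocytes. Of the 14 neighbouring steps, 10 at Peg3, 11 at Snrpn and 11 at Kcnq1ot1 were smaller than the larger SD of the pair. The steps above it were PD to 2i/L keratinocytes at Peg3, the knockout to 2i/L p20 and 2i/L p20 to returned p30 at Snrpn, and a2i/L p20 to wild-type keratinocytes at Kcnq1ot1, and the rest had no SD.

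Over the 29 libraries the levels of Peg3 and Kcnq1ot1 differed by a mean absolute 8.46 points, Snrpn and Kcnq1ot1 by 9.08 and Peg3 and Snrpn by 12.6. Libraries share lines and depth, and sampling error is part of each value. The autosomal bin outside the regions nearest to Peg3 was chr7:7252001-7253000, at 9.61 points, a larger distance than that of Kcnq1ot1. The next were chr2:174123001-174124000 at 10.1 points and chr17:12935001-12936000 at 10.2 points. Nearest to Snrpn were chr6:30689001-30690000 at 7.82 points, chr15:101975001-101976000 at 8.13 points and again chr17:12935001-12936000, at 8.28 points. Nearest to Kcnq1ot1 were chr15:101975001-101976000 at 7.34 points, chr2:174125001-174126000 at 7.66 points and chr17:12935001-12936000 at 7.79 points. The chromosome 17 bin, which is among the 3 nearest of each region, averaged 25.0% in returned p23, against 14.5% in 2i/L p20 libraries and 40.8% in S/L p20. The chromosome 15 bin, nearest to Kcnq1ot1 and the next nearest to Snrpn, averaged 30.1% in returned p23, against 14.7% in 2i/L p20 libraries and 27.0% in S/L p20. Like the chromosome 17 bin, the other bins named stood above 2i/L p20 and below S/L p20 in returned p23. The chromosome 7 bin averaged 30.7% in returned p23, against 42.9% in S/L p20, and the chromosome 6 bin 17.2%, against 39.97%. On chromosome 2, chr2:174123001-174124000 averaged 28.4%, against 48.3%, and chr2:174125001-174126000 15.4%, against 34.7%. Of the bins named, only the chromosome 15 bin thus reached the S/L p20 mean after return. Whether the 3 regions changed by different amounts was tested for 39 pairs and comparisons, and the smallest exact permutation p was 0.1 (adjusted p = 1).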

How the data were processed

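RRBS libraries (Ovation kit, 12 barcoded reactions pooled before bisulfite conversion, HiSeq2500, per the labels' protocols) gave per-CpG files. Per the submitters' processing notes BSMAP 2.89 and mm9 were used; filters, trimming, conversion rate and any removal of duplicate reads were not given in the sources used here, and reads without molecular identifiers are not independent molecules. The deposited files give methylated and all reads per CpG as text and, in another column, a score from the authors, which was 1000 times the fraction rounded down at every CpG (0 mismatches). The authors' deposited read counts stand inside that text field, so no count tool was used.

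From them, autosomal 1 kb bins with at least 10 reads were formed in Python 3.11.15. limma 3.58.1 in R 4.3.3 was fitted to log2 of (methylated + 1)/(unmethylated + 1) in 21 libraries of 8 replicated ESC groups, with Benjamini-Hochberg adjustment over 112778 bins, and the script was tested on simulated data. Where most bins change, this adjustment is lenient, so adjusted p-values in those comparisons lie close to the raw ones. Region levels were compared by exact two-sided permutation of libraries, adjusted over 39 tests. Intervals are 95% Wilson intervals and, like the floor of 3 counts, cover counting error only. Equal replicate numbers mark the same ESC line, which pairs samples by the labels; deviations of same-line libraries correlated between -0.063 and 0.070. Nothing in the labels says that libraries of different groups came from separate cultures beyond line and medium, so p-values measure the spread between these libraries. All member bins are described; outside them, the 3 bins most alike in level per region. Alternatives were other read minimums, pooled reads, shared CpGs, 1 CpG per cluster, pseudocount, a quasi-binomial model, fewer groups, replicate block and leaving out libraries. Some CpGs were read only in the libraries other than the p10, PD, CHIR and knockout ones, and others in 9 libraries (returned p30, a2i/L p20, PKCi/L p20 and keratinocytes), so groups cover partly different CpGs. The members and lists were chosen with earlier results of these data known.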

Additional observations from a re-analysis of the deposited data

How the results depend on the processing

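The 4 member bins hold few reads and the groups at most 3 libraries, so depth and the spread between libraries both limit the comparisons. Within 2i/L p20, for example, the Kcnq1ot1 read-share intervals of J-37 (3.60 to 12.4) and J-34 (22.2 to 38.4) were apart. Counts of member bins called stayed within 1.5 times in 163 alternative results and moved further in 11. For returned p23 against S/L p20 the count was 1 in place of 0 with the quasi-binomial model and with a minimum of 20 reads, and for PKCi/L p20 against 2i/L p20 it was 2 in place of 1 with a minimum of 5 reads and with CpGs read in every library of the fit. Leaving out each library, the count ranged between 0 and 1 for 2i/L p10 against S/L p10, between 1 and 3 for 2i/L p20 against S/L p20, between 0 and 1 for 2i/L p20 against 2i/L p10, between 0 and 1 for returned p23 against S/L p20 and between 1 and 4 for a2i/L p20 against 2i/L p20. The replicate block by ESC line changed no count of calls by more than 1.5 times, for example 3 for 2i/L p20 against S/L p20, also with the uncertain p30 library as J-34.

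Region differences kept their sign in 457 alternative results and turned in 39; the cause was not tested. With CpGs read in every library, which keeps only the second Peg3 bin since the first had as few as 8 such reads, the Peg3 difference was -2.80 points for S/L p20 against S/L p10, 13.6 for returned p23 against 2i/L p20, -0.27 for returned p30 against returned p23 and -6.21 for a2i/L p20 against S/L p20, and the Snrpn difference was 0.32 for PKCi/L p20 against S/L p20. With such CpGs in both Peg3 bins, an alternative chosen after seeing the data, Peg3 stood at 2.95 for returned p23 against 2i/L p20 and -0.78 for a2i/L p20 against S/L p20. With 1 CpG per cluster, chosen after seeing the data too, Peg3 stood at 4.97 for returned p23 against 2i/L p20 and -5.33 for a2i/L p20 against S/L p20, Snrpn at 0.82 for returned p30 against returned p23, and Kcnq1ot1 at -3.35 for returned p23 against 2i/L p20 and 0.25 for PKCi/L p20 against S/L p20. With a minimum of 5 reads Snrpn stood at 1.11 for returned p30 against returned p23 and 7.78 for PKCi/L p20 against S/L p20, and with pooled reads Peg3 stood at -1.64 for a2i/L p20 against S/L p20. With the replicate block Snrpn stood at 2.30 and Kcnq1ot1 at 0.46 for returned p30 against returned p23. Leaving out each library, differences ranged between -7.13 and 7.09 points for Peg3 in S/L p20 against S/L p10, between -8.95 and 5.80 for Peg3 and -7.24 and 6.34 for Kcnq1ot1 in returned p23 against 2i/L p20, between -0.47 and 15.2 for Peg3, -4.73 and 2.30 for Snrpn and -6.20 and 5.42 for Kcnq1ot1 in returned p30 against returned p23, between -8.52 and 10.4 for Peg3 in a2i/L p20 against S/L p20, and between -5.44 and 4.91 for Snrpn and -5.77 and 4.64 for Kcnq1ot1 in PKCi/L p20 against S/L p20. Of the 39 differences, 19 kept their sign but moved by over 1.5 times with a library left out, among them 2i/L p10 against S/L p10 (-20.9 to -6.71 points at Peg3, -16.6 to -8.14 at Kcnq1ot1), returned p23 against S/L p20 (-20.4 to -8.83 at Kcnq1ot1), returned p30 against S/L p20 (-24.4 to -9.37 at Peg3, -19.7 to -9.27 at Kcnq1ot1) and a2i/L p20 against 2i/L p20 (14.6 to 33.5 at Peg3, 14.3 to 25.8 at Kcnq1ot1). The lower means of all 3 regions in returned p23 and returned p30 against S/L p20 kept their sign in every alternative run.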
